A study of Mus musculus with 8 samples.

Results

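NF-YA binding was examined at 60 genes that encode cytosolic and mitochondrial chaperones, their cochaperones and the heat shock factors *Hsf1* and *Hsf2*. A peak was counted for a gene when the deposited table gives it that gene's symbol. Of the 7196 peaks, 18 carried a symbol of the list, and these belonged to 14 of the 60 genes. The other 46 genes had no assigned peak.

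The study asked how binding of NF-YA depends on TAF4A, a subunit of the general transcription factor TFIID, in muscle stem cells (MuSCs). MuSCs of C57BL/6 mice were used after culture, when they are activated and proliferate. Control cells were set against Taf4asKO cells, in which tamoxifen activates a Cre recombinase under the *Pax7* promoter that deletes part of *Taf4a* in MuSCs. In CUT&RUN an antibody brings a nuclease to its target on chromatin, and the DNA that is cut free is sequenced. Each genotype had 2 libraries with an antibody against NF-YA, and 2 libraries with unspecific IgG that were not analysed here. No label says that replicates came from separate mice or cultures, so p-values measure the spread between these libraries only, which may be technical. CUT&RUN does not read expression, so neither cell identity nor the loss of *Taf4a* could be checked in these data, and in cells analysed in bulk, occupancy in fewer cells and weaker occupancy in each cell cannot be told apart.

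Chaperones bind unfolded proteins and help them to reach or regain their structure. Hsp70 proteins bind and release clients in cycles of ATP hydrolysis that J-domain proteins start and nucleotide exchange factors reset, and Hsp90, the chaperonin CCT (TRiC) and prefoldin act on particular clients. Many of these genes are induced in stress by heat shock factors, which bind repeats of the element GAA and its reverse complement. NF-Y is a trimer whose subunit NF-YA recognises the pentamer CCAAT, a common element of promoters that is known from several Hsp70 genes, often close to the start of transcription.

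The sequences below show CCAAT boxes upstream of 8 of the genes, taken within 100 bases of a peak centre. *Hspa1a* and *Hspa1b* are included because the boxes at their starts have the same letters, and the strong *Hspa2* peak is not, because it has no box within its central 200 bases. They were read from GRCm38 (mm10) and are written 5′ to 3′ in the direction of the gene, with CCAAT, or ATTGG for a box on the opposite strand, in capitals. *Stip1* and *Hspa14* are shown over the whole array of boxes, because the spacing can then be seen. The *Stip1* stretch is chr19:7040135-7040316 on the minus strand, and the *Hspa14* stretch is chr2:3512830-3513026 on the minus strand.
Stip1: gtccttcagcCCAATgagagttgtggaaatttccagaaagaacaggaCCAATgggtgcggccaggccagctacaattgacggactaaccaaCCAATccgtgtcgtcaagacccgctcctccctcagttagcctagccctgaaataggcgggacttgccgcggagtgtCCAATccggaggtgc
Hspa14: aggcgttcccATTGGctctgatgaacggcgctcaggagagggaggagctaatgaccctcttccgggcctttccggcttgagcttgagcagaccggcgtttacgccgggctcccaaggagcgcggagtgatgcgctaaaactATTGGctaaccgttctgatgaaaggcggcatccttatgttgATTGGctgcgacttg

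For *Cct7*, *Hsph1*, *Hsf2*, *Dnajb1*, *Hspa1a* and *Hspa1b*, 25 bases around a box are shown. The 3 stretches of *Cct7* begin at 85451308, 85451370 and 85451400 of chromosome 6, on the plus strand. The stretch of *Hsph1* is chr5:149636438-149636462 on the minus strand, and that of *Dnajb1* is chr8:83608014-83608038 on the plus strand. The *Hsf2* stretches begin at 57486102 and 57486191 of chromosome 10, on the plus strand. Those of *Hspa1a* (chr17:34972209-34972233) and *Hspa1b* (chr17:34959291-34959315) lie on the minus strand and have the same letters.
Cct7, distal box: ccagcggctgATTGGccgccacgcc
Cct7, middle box: gccacttcctATTGGccaggagaag
Cct7, proximal box: ccgggcgctgATTGGccaaaactct
Hsph1: tcagttttagCCAATggcgcccgag
Hsf2, distal box: ttccctggacCCAATatcattccct
Hsf2, proximal box: gcggcagcagCCAATcgctttgctc
Dnajb1: gagggttgcgATTGGctggatccgc
Hspa1a: cggctcgctgATTGGcccagcggag
Hspa1b: cggctcgctgATTGGcccagcggag

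The value of a peak is its number of reads after normalisation by the authors, rounded to whole numbers. Reads in peaks were estimated at 111267 and 351696 in the control libraries and at 505241 and 735063 in the Taf4asKO libraries. The median peak held 4.91 to 16.3 reads in control and 26.4 to 41.7 in Taf4asKO. Both control libraries thus held fewer reads than both Taf4asKO libraries, and depth and genotype cannot be told apart. In control replicate 2, 1 read was worth 3.26 units, so that single reads move the weak peaks there. The 9 chaperone peaks with means under 50 held an estimated 0 to 9 reads in that library, and the other 9 held 22 to 207.

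Peaks were found at 14 of 60 chaperone genes (23.3%, 95% Wilson interval 14.4% to 35.4%, counting error only). The share was 14.6% over the 21951 protein-coding genes of GENCODE M21 (14.1% to 15.0%). All 14 genes had a peak centred within 1000 bases of their start. The share with such a peak was thus also 23.3% of the 60 genes, against 10.7% of protein-coding genes. A second list of 80 further folding genes, made of other J-domain proteins, partners of Hsp90 and tubulin folding factors among others, had peaks at 19 genes (23.8%, 15.8% to 34.1%).

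The peaks were unevenly spread over the roles. The Hsp70 and Hsp110 genes had peaks at 6 of 10 members, namely *Hspa1a*, *Hspa1b*, *Hspa2*, *Hspa8*, *Hspa14* and *Hsph1*, with 9 peaks in all. No peak was assigned to *Hspa4*, *Hspa4l*, *Hspa9* or *Hspa13*. Among Hsp90 and its cochaperones, 2 of 8 genes had a peak, *Hsp90aa1* and *Stip1*, whereas *Hsp90ab1*, *Trap1*, *Ahsa1*, *Cdc37*, *Ptges3* and *Chordc1* had none. Of the 12 J-domain genes, *Dnaja3* and *Dnajb1* had peaks, and *Dnaja1*, *Dnaja2*, *Dnajb2*, *Dnajb4*, *Dnajb6*, *Dnajc2*, *Dnajc5*, *Dnajc7*, *Dnajc8* and *Dnajc9* had none. Of 5 further mitochondrial genes, counted apart from *Dnaja3*, *Hspa9* and *Trap1* above, *Grpel1*, the nucleotide exchange factor of mitochondrial Hsp70, had a peak and *Hspd1*, *Hspe1*, *Clpb* and *Clpx* had none.

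*Cct7* was the only 1 of 8 CCT subunits with an assigned peak, and *Cct2*, *Cct3*, *Cct4*, *Cct5*, *Cct6a*, *Cct8* and *Tcp1* had none. Among 8 Hsp70 cofactors a peak was assigned to *Bag3* but not to *Bag1*, *Bag2*, *Bag4*, *Bag5*, *Bag6*, *St13* or *Stub1*. Of the heat shock factors *Hsf2* had a peak and *Hsf1* had none. Neither the 5 prefoldin genes (*Pfdn1*, *Pfdn2*, *Pfdn4*, *Pfdn5*, *Pfdn6*) nor the small heat shock genes *Hspb1* and *Hspb8* had a peak. A gene without a peak was not shown to lack NF-YA, because a site must pass the peak calling of the authors to enter the table.

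**Figure D1:**
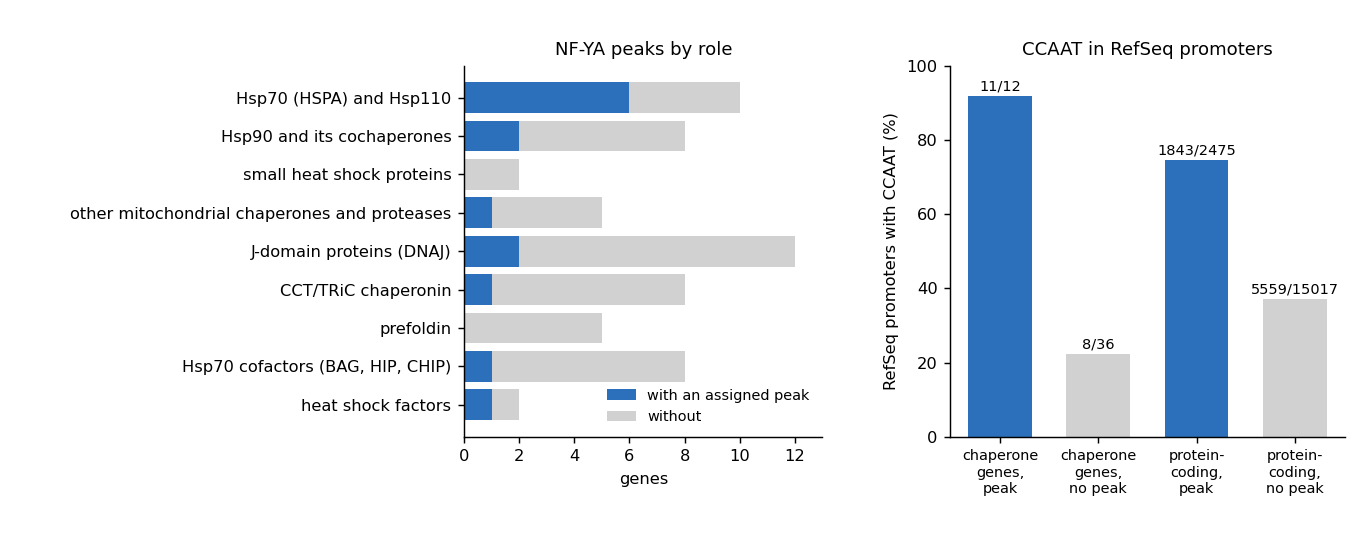
The left panel counts chaperone genes with (blue) and without (grey) an assigned NF-YA peak for each role, with 6 of 10 Hsp70 and Hsp110 genes at the top and none of the 5 prefoldin genes. The right panel gives the percentage of RefSeq promoters that hold CCAAT, with genes holding it over genes matched above each bar, at 91.7% for chaperone genes with a peak and 22.2% for those without.

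A peak takes the name of 1 gene only, and several chaperone genes share their promoter with a neighbour. When every peak centred within 1000 bases of any annotated start was counted, whatever its symbol, 17 of 60 genes had one. The 3 genes gained were *Bag4*, *Cct6a* and *Tcp1*. The peak at *Cct6a*, a CCT subunit, is named after *Psph* and had values of 107 and 121 in control against 87 and 100 in Taf4asKO. The peak at *Bag4* is named after *Lsm1*, with 61 and 68 in control against 47 and 62 in Taf4asKO. The peak at *Tcp1*, which encodes another CCT subunit, is named after *Mrpl18* and had values of 48 and 42 in control against 70 and 74 in Taf4asKO. The genotypes did not overlap at *Cct6a* and *Tcp1*, as at 47.9% of all tested peaks, and overlapped at *Bag4*. At *Tcp1* the log2 fold change was 0.67 (SE 0.207, 95% interval 0.21 to 1.13), larger than at any tested peak named after a chaperone gene. None of the 3 passed the limma test, which 0.948% of all tested peaks passed (adjusted p of 0.414, 0.148 and 0.566 for *Cct6a*, *Tcp1* and *Bag4*). *Cct7* and *Dnaja3* each had a further peak of this kind, named after *Pradc1* (19 and 16 in control, 11 and 16 in Taf4asKO) and *Vasn* (36 and 16 in control, 40 and 42 in Taf4asKO). Neither passed the test (limma adjusted p of 0.625 and 0.301). At *Dnaja3* both Taf4asKO libraries were above both controls, with a log2 fold change of 0.74 (SE 0.357) that was 1.30 without control replicate 1 and 0.18 without control replicate 2.

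Chaperone peaks covered a wide range of signal. Their mean over the 4 libraries had a median of 50.6, against 17.2 for all peaks, and reached from 7.25 to 618.2. The median was 26.6 for peaks with an assigned gene and 57 for the second list of folding genes. Means of at least 100 were found for 7 of 18 chaperone peaks (38.9%), for 13.5% of all peaks, for 19.3% of those with an assigned gene and for 33.3% of those of the second list. The chaperone peaks were also closer to starts, with 16 of 18 (88.9%) within 1000 bases compared with 58.9% of all peaks with an assigned gene. In the second list 71.4% of the peaks lay within 1000 bases. These shares are descriptions, and no test of the list was made.

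**Figure D2:**
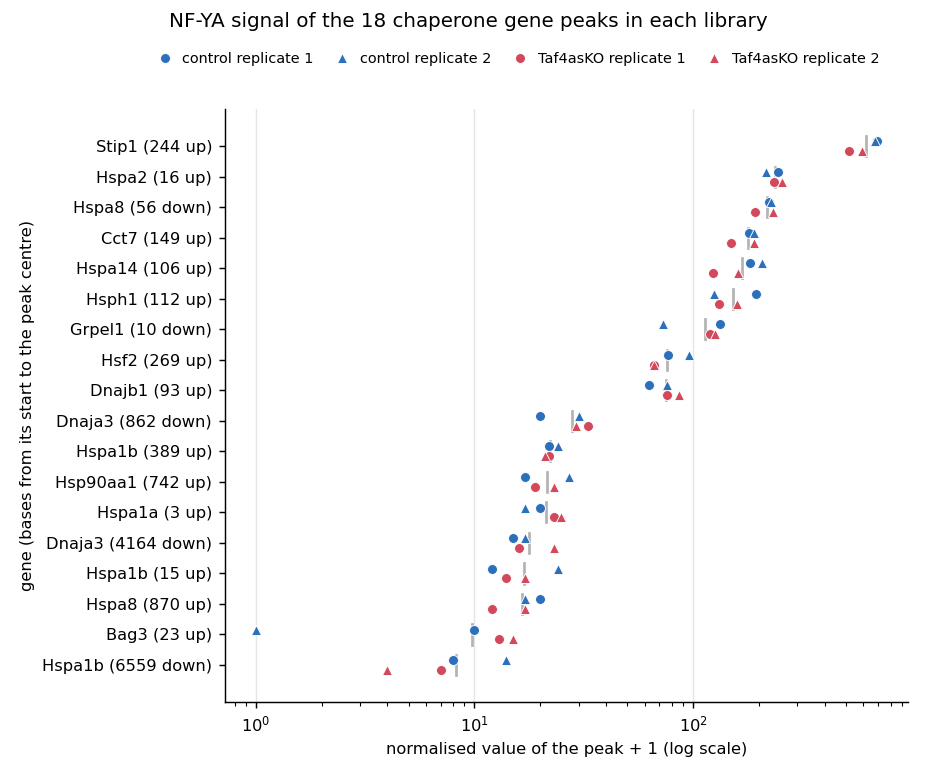
Each line is a chaperone peak, named by its gene and the bases from the gene start to the peak centre (up, upstream and down, downstream), and points give the normalised value + 1 in each library on a log axis, with a grey bar at the mean of the 4 libraries. *Stip1* stands highest at 515 to 691, and *Bag3* has a value of 0 in control replicate 2.

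The strongest chaperone peak lay upstream of *Stip1*, which encodes the cochaperone HOP that links Hsp70 with Hsp90. The peak (ENSMUSG00000024966, chr19:7039890-7040532, intergenic) was centred 244 bases upstream of the start and ranked 21 among all 7196 peaks by its mean. It had values of 691 and 675 in the control replicates and of 515 and 592 in the Taf4asKO replicates. Both Taf4asKO libraries were below both control libraries. The log2 fold change was -0.31 (SE 0.113, 95% interval -0.56 to -0.055) with an adjusted p of 0.20 by limma, so the difference did not pass the threshold of 0.05. It passed the threshold only when the libraries were scaled to equal medians (log2 fold change -0.43, adjusted p = 0.0435), a scaling under which 314 of all 4711 tested peaks passed (6.67%) and the median of all peaks was -0.17. With equal totals, where 1.29% of all tested peaks passed, it did not pass. Adjusted p ranged from 0.0435 to 0.739 over the alternatives.

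At *Hsp90aa1*, the stress-inducible cytosolic Hsp90, the assigned peak was weak and lay 742 bases upstream (chr12:110703390-110703550, intergenic). This peak is named here after its values were seen, as its gene is a main member of the group. Its values were 16 and 26 in control against 18 and 22 in Taf4asKO, and the genotypes overlapped (log2 fold change -0.035, SE 0.347). The direction rests on single libraries, with -0.37 without control replicate 1 and 0.30 without control replicate 2, and it was 0.10 with equal totals and also with weights. Of its 36-base words, 96.0% occurred once in the genome, and reads from the others cannot be placed with certainty.

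Among the Hsp70 genes the highest mean over the 4 libraries was at *Hspa2*, a family member known for its role in sperm formation. The peak (chr12:76403938-76404381, intergenic) was centred 16 bases upstream of the start, with 244 and 215 in control against 234 and 254 in Taf4asKO. The main *Hspa8* peak was higher than it in control replicate 2. The genotypes overlapped and the log2 fold change was 0.09 (SE 0.140, 95% interval -0.22 to 0.40, limma adjusted p = 0.757).

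*Hspa8* encodes the constitutive cytosolic Hsp70. Its main peak (chr9:40800738-40801342, over the 5′ UTR) had values of 222 and 225 in control against 191 and 231 in Taf4asKO. A second, weak peak 870 bases upstream (chr9:40800036-40800192, intergenic) had 19 and 16 in control against 11 and 16 in Taf4asKO. At both peaks the genotypes overlapped, and log2 fold changes were -0.089 (SE 0.148) and -0.37 (SE 0.376). That of the weak peak was -0.12 without Taf4asKO replicate 1 and -0.62 without Taf4asKO replicate 2.

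*Hspa14*, whose product acts at the ribosome, had a peak 106 bases upstream (chr2:3512772-3513068, intergenic) that lies between its start and that of *Cdnf* on the opposite strand. Values were 181 and 205 in control against 122 and 160 in Taf4asKO, and both Taf4asKO libraries were below both control libraries. The log2 fold change of -0.46 was the lowest among the tested chaperone peaks (SE 0.175, 95% interval -0.85 to -0.07), but adjusted p was 0.212 by limma and ranged from 0.0592 to 0.740 over the alternatives. The fold change was -0.27 without Taf4asKO replicate 1 and -0.65 without Taf4asKO replicate 2. At *Hsph1*, an Hsp110 that resets Hsp70 by nucleotide exchange, the peak 112 bases upstream (chr5:149636195-149636781, intergenic at its centre by GENCODE) had 193 and 124 in control against 130 and 157 in Taf4asKO. The control replicates lay further apart than the genotypes here. An exon annotated in GENCODE or RefSeq covers the *Hsph1* stretch printed above.

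The inducible Hsp70 genes *Hspa1a* and *Hspa1b* are near-identical copies on chromosome 17 and had weak peaks. At *Hspa1a* (34972104 to 34972213, 3 bases upstream) the values were 19 and 16 in control against 22 and 24 in Taf4asKO. *Hspa1b* had 3 peaks, 15 bases upstream (34959211 to 34959295), 389 bases upstream (34959538 to 34959715) and 6559 bases downstream of its start (34952640 to 34952718), all placed outside genes by GENCODE. In the same order their control values were 11 and 23, 21 and 23, and 7 and 13, and their Taf4asKO values were 13 and 16, 21 and 20, and 6 and 3. The libraries separated by genotype at *Hspa1a*, where Taf4asKO was higher, and at the distal *Hspa1b* peak, where it was lower and which was under the minimum mean of 10 for testing. The distal peak carries the symbol *Hspa1b* in the deposited table, but other annotated starts lie closer to its centre. Those of *1110038B12Rik* (a processed transcript) and *Gm25744* (a snoRNA) are within 1000 bases of it.

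Of the 36-base words in the peaks at the starts, 73.3% at *Hspa1a* and 60% at *Hspa1b* occurred once in the genome. Since reads with several matches had been removed, and reads of the copies share letters as shown in the sequences above, values of these peaks are uncertain. The *Hspa1a* peak had the highest log2 fold change among the tested chaperone peaks, 0.38 with an SE of 0.313, and by limma its adjusted p was 0.532.

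*Cct7*, a subunit of the CCT ring that folds actin and tubulin, had a peak 149 bases upstream (chr6:85451183-85451547) with its centre in an intron of the divergent neighbour *Pradc1*. Annotated exons cover all 25 bases of the distal stretch printed above and 8 of the middle one. Its values were 180 and 189 in control against 148 and 189 in Taf4asKO, and the genotypes shared their highest value. *Grpel1* had a peak over its 5′ UTR, 10 bases downstream of the start (chr5:36464857-36465159), with 132 and 72 in control against 118 and 125 in Taf4asKO. On the log2 scale the change was 0.31 (SE 0.256, adjusted p = 0.526 by limma), and without control replicate 2 it was -0.12.

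The J-domain gene *Dnajb1*, a stress-inducible partner of Hsp70, had a peak 93 bases upstream (chr8:83607990-83608209, intergenic), with 62 and 75 in control against 75 and 85 in Taf4asKO. The genotypes met at 75. The start of the protein-coding gene *Tecr*, on the opposite strand, lies 129 bases from the centre of this peak. *Dnaja3*, which encodes a mitochondrial J-domain protein, had intronic peaks 862 and 4164 bases downstream of its start (chr16:4640749-4640953 and chr16:4644033-4644273). The nearer had 19 and 29 in control against 32 and 28 in Taf4asKO, and the further had 14 and 16 in control against 15 and 22 in Taf4asKO. The log2 fold changes were 0.34 (SE 0.304) and 0.26 (SE 0.362), and the genotypes overlapped. The nearer gave 0.044 without control replicate 1 and 0.63 without control replicate 2, and the further gave 0.53 without Taf4asKO replicate 1 and 0.0028 without Taf4asKO replicate 2.

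*Hsf2*, a member of the heat shock factor family, had a peak 269 bases upstream (chr10:57485937-57486294). By GENCODE its centre lies in an intron of a divergent noncoding RNA gene, whereas exons of GENCODE or RefSeq cover both stretches printed above. Its values were 76 and 95 in control and 65 in both Taf4asKO libraries. Taf4asKO was lower in both libraries, with a log2 fold change of -0.38 (SE 0.198, 95% interval -0.82 to 0.062, limma adjusted p = 0.336), and it was -0.54 without control replicate 1 and -0.22 without control replicate 2. *Bag3*, a cochaperone of Hsp70 that serves selective autophagy in muscle, is named here after its values were seen. Its peak of 75 bases (chr7:128523556-128523630, 23 bases upstream) had 9 and 0 in control against 12 and 14 in Taf4asKO. As the 0 stands in the library with the fewest reads, and the mean of 8.75 was under the minimum, no fold change was computed.

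Over all chaperone genes no difference between the genotypes passed the test. Of the 18 peaks, 16 had a mean value of at least 10 and entered the limma fit with 4746 peaks in all, and 0 of the 16 had an adjusted p under 0.05. Among all tested peaks 45 passed (0.948%). At an unadjusted limma p under 0.05, 2 chaperone peaks were found (*Stip1* and *Hspa14*), compared with 17.9% of all tested peaks. Adjusted p ranged from 0.20 to 0.963 over the 16 peaks. A p above the threshold does not show that the genotypes bound alike, and the 95% intervals of the log2 fold changes reached from -1.21 to 1.08 over the 16 peaks.

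The log2 fold changes of the 16 peaks had a median of -0.093 and a range from -0.46 to 0.38, and the median over all tested peaks was -0.045. With equal totals of the libraries both medians were above 0, at 0.049 and 0.10, and with equal medians they were -0.22 and -0.17, and the small differences of *Hspa2*, *Hspa8* (main peak), *Cct7* and *Hsph1* changed sign with the scaling. Among peaks with means of at least 100 the median was -0.11 for the 7 chaperone peaks and -0.22 for all 971.

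Both Taf4asKO libraries were below both controls at 3 of 16 peaks (*Stip1*, *Hspa14*, *Hsf2*), and this was the case at 28.6% of all tested peaks. Among peaks with means of at least 100 it was the case at 2 of 7 chaperone peaks and at 573 of all 971 (59.0%). Both were above at 1 of 16 (*Hspa1a*), against 19.3% of all. With equal medians 7 peaks were below and 1 above, against 40.3% and 15.0% of all tested peaks, and with equal totals 3 were below and 6 above, against 19.8% and 32.1%. Counted in either direction, the genotypes did not overlap at 8 of the chaperone peaks with equal medians (55.2% of all tested peaks) and at 9 with equal totals (51.9%). None of the 16 had a ratio of group means beyond 2 in either direction, which 7.61% of all tested peaks had. With no minimum 2 of the 18 did (*Bag3* and the distal *Hspa1b* peak), against 16.6% of all 7196 peaks. The typical distance between replicates was 0.234 in control and 0.236 in Taf4asKO (median absolute log2 difference over the 16 peaks).

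**Figure D3:**
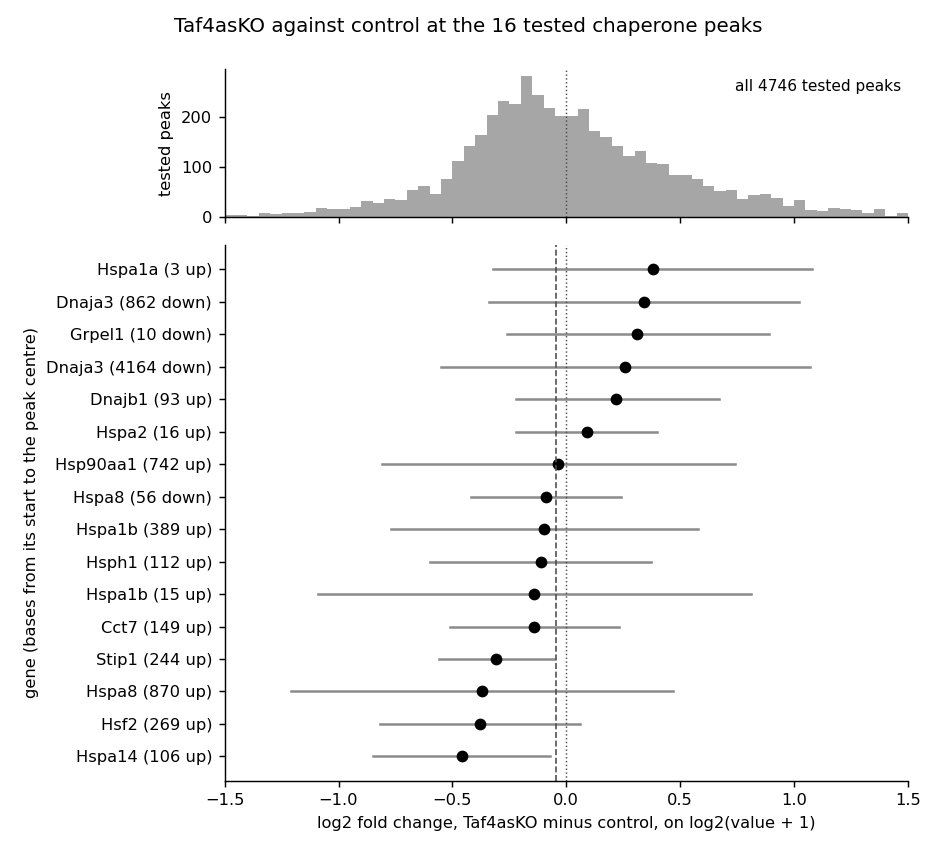
Points are log2 fold changes of Taf4asKO against control on log2(value + 1) for the 16 tested chaperone peaks, bars are 95% intervals from limma, and the dashed line is the median of all tested peaks, whose histogram stands above (peaks beyond 1.5 in size are not drawn). The points lie between -0.46 and 0.38, and the intervals of *Stip1* and *Hspa14* end below 0, before adjustment for multiple tests.

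The second list of 80 folding genes is given for comparison. Its 21 peaks were all tested, and 1 had an adjusted p under 0.05, which 0.948% of all tested peaks had. This was a peak 3966 bases from the start of *Dnajb5* (chr4:42953549-42954011), which encodes a J-domain protein. Values there were 86 and 65 in control against 33 and 22 in Taf4asKO, and both Taf4asKO libraries were lower. The log2 fold change was -1.44 (SE 0.269) with an adjusted p of 0.0473 by limma, and it ranged from -1.72 to -1.16 when a library was left out, with adjusted p of 0.232 to 0.739 in fits where none of all tested peaks passed. The call was also lost with equal totals (adjusted p = 0.0539 by limma) and with no minimum (0.285). The peak 133 bases from the start of *Dnajb5* had 211 and 176 in control against 199 and 208 in Taf4asKO, with overlapping genotypes. The median log2 fold change of the 21 peaks was -0.088.

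CCAAT was looked for on both strands within the 200 bases at the centre of a peak. It was found in 15 of 18 chaperone peaks (83.3%) and in 78.4% of all peaks, whereas windows of the same length centred 1000 bases to either side held it in 19.4% of 36 windows at chaperone peaks and in 23.5% of those at all peaks. The second list held it in 19 of 21 peaks (90.5%). Among peaks with means of at least 10 it was in 14 of 16 chaperone peaks (87.5%) and in 85.3% of all. The chaperone share was 9 of 18 in the central 100 bases, where it was 64.7% for all peaks, and was 17 of 18 in the central 300 bases (82.0%). Over whole peaks it was 14 of 18 (77.8%), against 75.8% of all peaks. At *Hsp90aa1*, *Hspa1a* and the *Hspa1b* peak at the start, the box counted in the central 200 bases lay outside the peak. The peaks without CCAAT in the central 200 bases were the main *Hspa8* peak, the *Hspa2* peak and the *Bag3* peak. The wide *Hspa8* and *Hspa2* peaks held 2 and 3 boxes further out, and the *Bag3* peak held none.

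Among the genes with sequences shown above, *Stip1*, *Cct7* and *Hspa14* had arrays of 3 or more boxes. The share of such arrays over all peaks was not counted. The *Stip1* peak held 4 boxes in its centre, all on the strand of the gene and 76, 44 and 37 bases apart from the start outwards, and 7 over its whole width. *Cct7* held 3, all on the opposite strand and 62 and 30 bases apart in the direction of transcription, and *Hspa14* held 3 on the opposite strand with gaps of 41 and 131 bases from the start outwards. In all, 7 of 18 chaperone peaks (38.9%) and 36.4% of all peaks held 2 or more boxes in the centre. The box was preceded by A or G at 20 of 27 boxes in chaperone peaks (74.1%), as at 74.2% of 9304 boxes in all peaks. It was followed by CA or GA at 8 of the 27 boxes (29.6%), and at 41.5% of those in all peaks.

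**Figure D4:**
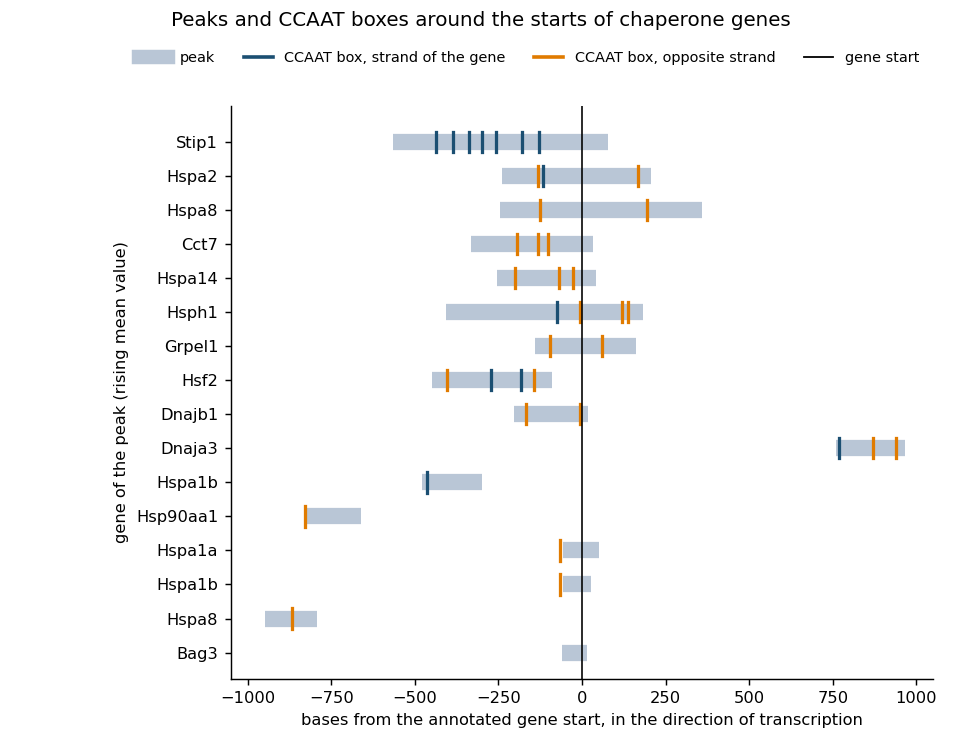
Grey bars are the 16 chaperone peaks within 1000 bases of a start, ordered by mean value with *Stip1* at the top, and ticks are CCAAT boxes on the strand of the gene (dark) or the opposite strand (orange). The 7 boxes of *Stip1* and the 3 of *Cct7* point 1 way each, and the boxes of the weak peaks at the starts of *Hspa1a* and *Hspa1b* lie just outside the peak, 65 bases upstream of the start.

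Heat shock elements were searched as pairs of half-sites, GAANNTTC or TTCNNGAA, which each equal their own reverse complement. Within the central 200 bases a pair was found at 4 of 18 chaperone peaks (22.2%) and at 8.59% of all peaks. The 4 were *Stip1*, the main *Hspa8* peak, *Bag3* and the *Hspa1b* peak at the start. At *Stip1* and *Hspa8* the pairs lay inside the peak, whereas the *Bag3* pair ran past the end of its peak. The *Hspa1b* pair lay outside its narrow peak, at 34959335 to 34959342 of chromosome 17. The second list had a pair at 0 of its 21 peaks. A run of 3 alternating half-sites was present at *Stip1* and *Hspa8* (2 of 18, 11.1%) and in 14 of 7196 peaks (0.195%). In the *Stip1* sequence shown above it stands between the first and the second CCAAT box, at offsets of -316 and -321 bases from the start (centres of its 2 pairs). A match of letters is no proof of binding by a heat shock factor, which was not measured here.

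The promoters of RefSeq, 250 bases before to 50 bases after a gene start on its GRCm38 build, allowed the genes with and without a peak to be compared. They held 48 of the 60 genes. *Hsp90aa1*, *Hsp90ab1*, *Hspa8*, *Hspa9*, *Hspa13*, *Hsf1*, *Bag4*, *St13*, *Cct4*, *Pfdn1*, *Dnajc2* and *Dnajc5* were not matched. CCAAT was present in 11 of 12 promoters of genes with a peak (91.7%) and in 8 of 36 without (22.2%). The same shares were 74.5% and 37.0% over protein-coding genes with and without an assigned peak. The exception with a peak and no CCAAT was *Bag3*.

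The 8 genes without an assigned peak whose promoter held CCAAT were *Cct3*, *Cct6a*, *Tcp1*, *Cdc37*, *Clpx*, *Dnaja1*, *Dnajc7* and *Hspd1*, and of these *Cct6a* and *Tcp1* had the peaks named after a neighbour described above. None of the 4 prefoldin promoters and neither of those of *Hspb1* and *Hspb8* held CCAAT. Pairs of heat shock half-sites were present in 17 of 48 chaperone promoters (35.4%) and in 15.7% of all protein-coding promoters. Their share was 4 of 12 with a peak and 13 of 36 without. Runs of 3 half-sites were held by *Chordc1*, *Dnajb6*, *Hspe1*, *Hspd1* and *Hsph1* (10.4% of the 48, against 0.595% of all), and *Hsph1* was the only 1 of these with a peak.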

How the data were processed

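The NF-YA libraries of both genotypes (2 each) were analysed. The authors trimmed the reads, aligned them to mm10, removed duplicates and reads with several matches, called peaks in each library against IgG and merged them. According to the submitters' processing notes, Trimmomatic 0.39, STAR 2.7.11a, Picard 3.1.1, featureCounts and DESeq2 1.36.0 were used. The deposited value is a score, namely the reads in a peak normalised by the authors with DESeq2 and rounded. The authors gave peaks a gene with a start within 10000 bases, which is not in every case the nearest start in GENCODE.

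The value of 1 read was found from the gaps between values, in a search tested on 4 simulated libraries. Whole reads could not be recovered in Taf4asKO, so no count model was run. Genotypes were compared with limma 3.58.1 (R 4.3.3, two-sided, trended variance) on log2(value + 1), which understates changes of low peaks, and peaks with a mean under 10 were left out. Adjusted p-values follow Benjamini-Hochberg over all tested peaks, and the fit was tested on simulated data. Gene starts and places come from GENCODE M21 on GRCm38, where 18 of 18 peaks had a gene with identical coordinates, and sequences from GRCm38 and RefSeq. Python 3.11.15, pysam 0.24.0 and scipy 1.17.1 were used.

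Values were given for the peak nearest the start of each gene if its mean was at least 50, all peaks of genes with several, the 3 largest changes in each direction, and peaks at a member's start named after a neighbour. Genes, lists and tests were chosen with earlier results of these data known. Alternatives were other scalings, minima, pseudocounts, weights, thresholds and windows, the replicate number as a block, and leaving out each library.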

Additional observations from a re-analysis of the deposited data

How the results depend on the processing

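The number of chaperone peaks past the limma threshold was 0 under every alternative except equal medians, where *Stip1* passed and the number was 1 (6.67% of all tested peaks passed there, against 0.948%). The peaks passing over the whole table numbered 45 as reported, 0 with no minimum, 31 with the block, 58 with a pseudocount of 5, 61 with equal totals, 126 with a minimum of 20, 131 at a threshold of 0.1 and 219 with weights. It was 0 without each library in turn, where 0 of all tested peaks passed and the lone library of a genotype was assumed to vary like the others. The median log2 fold change was 0.049 with equal totals, 0.0034 with weights from the reads (-0.061 over all tested peaks), and from -0.20 to 0.041 when a library was left out, with the highest value without Taf4asKO replicate 1. CCAAT was found in 9 peaks in the central 100 bases. The genotypes did not overlap at 8 peaks with equal medians and 9 with equal totals, against 4, and at 55.2%, 51.9% and 47.9% of all tested peaks.

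Of 173 recomputed log2 fold changes, 154 kept their direction and side of the threshold, 18 had the opposite sign and 1 (*Stip1*) passed the threshold. For 8 of 16 peaks the sign was the same in every setting. With equal totals the sign turned for *Cct7* (0.0036), *Hsp90aa1* (0.10), the *Hspa1b* peak at 389 bases (0.042), the main *Hspa8* peak (0.055) and *Hsph1* (0.03), and with equal medians for *Hspa2* (-0.036). With weights it turned for *Hsp90aa1* (0.10) and the *Hspa1b* peak at the start (0.073). When each library was left out, values ranged from -0.32 to 0.035 for *Cct7*, -0.12 to 0.75 for *Grpel1*, -0.37 to 0.30 for *Hsp90aa1*, -0.64 to 0.36 for the *Hspa1b* peak at the start, -0.0012 to 0.18 for *Hspa2*, -0.23 to 0.047 for the main *Hspa8* peak and -0.43 to 0.20 for *Hsph1*. The *Dnajb5* peak near the start gave -0.048 with equal medians and from -0.052 to 0.21 when a library was left out. The distal *Dnajb5* peak kept its sign in every setting, with -1.30 for equal totals (adjusted p = 0.0539 by limma) and -1.44 for no minimum (0.285), where 0 of all 7196 peaks passed. The cause was not tested.

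The replicate numbers are only shared numbers, since nothing says what they pair, and the deviations of same-numbered libraries had a correlation of -0.0883 over tested peaks and of 0.256 over peaks with means of at least 100. With the replicate number as a block, 0 chaperone peaks and 31 of all tested peaks passed, and the median log2 fold change of the chaperone peaks was -0.093. The few reads in peaks of control replicate 2 limit what can be seen at peaks with values near 20 or less.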
